A study of Mus musculus with 4 samples.

Results

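The TGF-beta pathway of the spinal cord's immune cells was described here through 10 genes, of 31053 in the count matrices. They were the ligand Tgfb1, the ligand-presenting protein Lrrc33, the receptors Tgfbr1 and Tgfbr2, the signal carriers Smad2, Smad3 and Smad4, the inhibitory Smad7 and the corepressors Ski and Skil. Members were chosen by name and not by a cut on measured values, but earlier results of these data were known at that time. A symbol matched for 9 of them, and Lrrc33 was found as Nrros, the name under which RefSeq lists Lrrc33 as a synonym. All 10 had unique molecular identifiers (UMIs) in all 4 libraries.

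Each library held CD45+ cells, that is leukocytes, sorted from the spinal cords of C57BL/6 mice and read at the 3′ end of their transcripts in droplets. The standard sham library came from cords of sham mice dissociated without actinomycin D (ActD), a transcription inhibitor added to hold down the genes that dissociation itself induces. The other 3 libraries were made with ActD (Act-seq): the ActD sham, and cords at 3 and 14 days after injury (dpi). The mice were 3 months old, injury was a contusion at T10, and sham mice had the same surgery without contusion. The labels of both sham libraries read healthy spinal cords, while the study calls these groups sham. No group carried a transgene or an altered allele by its labels. Mice of both sexes were used. How many went into each of the 4 libraries is not given in the sources used here.

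Every group was 1 library, so no test between conditions was possible and no p-value is given. Levels are counts (CPM) scaled to 1000000 of all UMIs summed over the cells of a class in a library. Their 95% intervals, in parentheses, are exact Poisson intervals, and those of log2 ratios are exact conditional Poisson intervals. Both cover counting error only, not the variation between mice or preparations. A 3′ UMI counts a transcript once whatever its length, so levels were not divided by length.

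TGF-beta is secreted as a latent complex and has to be freed before it can act. On microglia and macrophages Lrrc33 holds the latent ligand at the cell surface, and integrins with an alpha v chain release it. The free ligand joins the type II receptor Tgfbr2, which activates the type I receptor Tgfbr1. Tgfbr1 phosphorylates Smad2 and Smad3, which enter the nucleus with Smad4. Smad7, Ski and Skil restrain the signal, and several of these brakes are themselves induced by it. In the adult central nervous system TGF-beta is known to be needed for the mature gene programme of microglia, which includes P2ry12, Tmem119 and Sall1.

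After filters, 24462 cells remained (5035 in the standard sham, 2135 in the ActD sham, 8214 at 3 dpi and 9078 at 14 dpi), and 21422 of them could be named by markers. Names below such as microglia stand for cells that carried those markers ("microglia-like"). Neither the members nor the homeostatic genes were used for clustering or naming. Microglia, named from 6 markers that included Sparc, Olfml3, Siglech, Gpr34 and Fcrls, were 2461, 1508, 821 and 4066 cells in that order of libraries. Different clusters held them: over 90.5% of sham microglia lay in the cluster led by P2ry12 and Tmem119, against 27.3% at 3 dpi, when 33.3% lay in a cluster led by Top2a and Mki67 and 31.7% in one led by Lpl, and 38.5% at 14 dpi, when 58.2% lay in the Lpl cluster. Unnamed cells were 20.9%, 15.3%, 13.3% and 6.28% of the libraries. Pairs of libraries shared 3 to 36 barcodes.

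Some of these libraries stood apart in ways that touch the results. The microglia of the standard sham held 52135 CPM of 20 immediate early genes, against 1209.7, 6043 and 875 CPM in the ActD sham, at 3 dpi and at 14 dpi. At 3 dpi, 88.7% of microglia had UMIs of at least 2 of 20 proliferation genes, against 5.40% and 7.16% in the shams and 14.9% at 14 dpi. With each cell thinned to 1000 UMIs the shares were 40.2%, 0.122%, 0.332% and 0.517%. The integrated cluster led by Top2a at 3 dpi was named B cell at 14 dpi and in the standard sham. Any cycling microglia in it could thus not be called microglia in those libraries. Of its 53 cells in the ActD sham, 7 were kept as microglia. The part of this naming in the shares was not tested. The microglia of 3 dpi were also the deepest, with a median of 20185 UMIs against 7813 to 10885 in the others. The 6 microglial markers summed to 12299.6, 20210.5, 5156 and 10402 CPM, with none at 0. The 8 markers of injury macrophages (Arg1, Gpnmb, Fn1 and others) summed to 285, 39.3, 5482 and 1118 CPM in the same cells, so at 3 dpi they stood as high as the microglial markers. All 8 were above 0 in microglia at 3 dpi. The part of these differences in the results below was not tested, except where cycling cells were left out. In the integrated clustering of 3 dpi, the Lpl cluster scored 0.59 for microglial and 0.63 for injury macrophage markers, and was named microglia. The Top2a cluster there scored 0.52 and 0.49. With 3 dpi clustered alone, the microglial cluster led by Mki67 scored 0.87 and 0.50. The other, led by Sparc, also scored higher for microglia, with 0.44 for injury macrophages. Whether the near ties shaped the 3 dpi ratios was not tested. In the matrix headers the ActD sham and 14 dpi carry version 3.1.0 of the counting software, against 3.0.1 in 3 dpi and the standard sham, so only the comparison of 14 dpi with the ActD sham stays within a version, and in the others the version and the condition cannot be told apart.

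The start-site windows of the ligand, its presenter and the type I receptor are shown because the results turn on these genes, and because they differ in make-up. Tgfb1 lies at chr7:25687002-25705077 on the plus strand, Tgfbr1 at chr4:47353222-47414931 on the plus strand and Lrrc33 at chr16:32142785-32165594 on the minus strand, all in GRCm38.p6. Each window runs from 250 bases before to 50 after a RefSeq start, at chr7:25686752-25687051, chr4:47352972-47353271 and chr16:32165545-32165844. Searched on both strands were the SMAD box CAGACA, the PU.1 core GAGGAAGT, the AP-1 site TGACTCA, the GC box GGGCGG and the CCAAT box CCAAT. Capitals mark the matches.
Tgfb1: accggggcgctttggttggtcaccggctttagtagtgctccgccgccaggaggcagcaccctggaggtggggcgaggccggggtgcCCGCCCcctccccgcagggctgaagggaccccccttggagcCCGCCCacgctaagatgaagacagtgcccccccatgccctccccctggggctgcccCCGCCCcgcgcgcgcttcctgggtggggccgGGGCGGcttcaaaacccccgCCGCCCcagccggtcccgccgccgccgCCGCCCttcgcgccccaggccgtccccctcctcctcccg
Tgfbr1: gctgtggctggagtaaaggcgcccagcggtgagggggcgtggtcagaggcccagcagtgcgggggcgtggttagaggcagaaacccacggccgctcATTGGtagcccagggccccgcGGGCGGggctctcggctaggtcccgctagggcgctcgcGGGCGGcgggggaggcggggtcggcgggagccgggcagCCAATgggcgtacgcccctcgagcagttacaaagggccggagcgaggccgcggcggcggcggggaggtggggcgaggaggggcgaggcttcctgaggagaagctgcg
Lrrc33: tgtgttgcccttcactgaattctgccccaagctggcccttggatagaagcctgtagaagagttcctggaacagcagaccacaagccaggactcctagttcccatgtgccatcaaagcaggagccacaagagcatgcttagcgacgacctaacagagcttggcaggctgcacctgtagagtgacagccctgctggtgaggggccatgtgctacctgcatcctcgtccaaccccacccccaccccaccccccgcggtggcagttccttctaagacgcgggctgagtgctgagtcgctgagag
The Tgfb1 window held 6 GC boxes, the Tgfbr1 window 2 GC boxes and 2 CCAAT boxes, and the Lrrc33 window no match. A second Tgfbr1 window of the table, at chr4:47385966-47386265, held 1 SMAD box and 1 CCAAT box and is not printed. Over the 32851 windows of the table, 35.7% held a GC box, 37.4% a CCAAT box, 21.0% the SMAD box, 5.20% the AP-1 site and 3.20% the PU.1 core. The G and C content was 77% for Tgfb1, 74.7% for Tgfbr1 and 59% for Lrrc33, against a median of 52.7%. Such a match is a string of letters and not a measured binding site.

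In microglia the type I receptor had the largest difference between libraries of all members. Tgfbr1 stood at 619.8 CPM in the standard sham, 965 in the ActD sham, 102 at 3 dpi and 432 at 14 dpi. The 3 dpi level was the lowest, and no 2 of the 4 intervals overlapped. Against the ActD sham, the log2 ratio was -3.25 (-3.32 to -3.18) at 3 dpi and -1.16 (-1.19 to -1.13) at 14 dpi. The type II receptor Tgfbr2, which binds the ligand first, stood at 200.2 CPM in the standard sham, 374 in the ActD sham, 97.1 at 3 dpi and 261 at 14 dpi. Its log2 ratios to the ActD sham were -1.94 (-2.02 to -1.87) and -0.52 (-0.56 to -0.47). Both receptors were thus lowest at 3 dpi and nearer the sham levels at 14 dpi.

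The ligand differed less. Tgfb1 stood at 378 CPM in the standard sham, 304 in the ActD sham, 147 at 3 dpi and 227 at 14 dpi, with log2 ratios to the ActD sham of -1.05 (-1.12 to -0.98) at 3 dpi and -0.42 (-0.47 to -0.37) at 14 dpi. Lrrc33, which tethers latent ligand, stood at 168 CPM in the standard sham, 128 in the ActD sham, 70.6 at 3 dpi and 53.8 at 14 dpi. It was the only member whose level was lowest at 14 dpi, where its log2 ratio to the ActD sham was -1.25 (-1.33 to -1.16), against -0.86 (-0.96 to -0.76) at 3 dpi. The levels of the ligand and of its presenter therefore did not run in parallel over the injury libraries.

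The Smads that carry the signal had low counts throughout. Smad2 stood at 29.999 CPM in the standard sham, 52.9 in the ActD sham, 17.7 at 3 dpi and 28.7 at 14 dpi. Smad3 stood at 37.8 CPM in the standard sham, 40.2 in the ActD sham, 11.6 at 3 dpi and 17.2 at 14 dpi. Smad4, the shared partner, stood at 72.0 CPM in the standard sham, 85.0 in the ActD sham, 21.9 at 3 dpi and 44.7 at 14 dpi. All 3 were lowest at 3 dpi, with log2 ratios to the ActD sham of -1.58 (-1.77 to -1.39), -1.79 (-2.03 to -1.57) and -1.96 (-2.12 to -1.80). At 14 dpi their ratios were -0.88, -1.23 and -0.93.

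Of the brakes of the pathway, Smad7 and Skil were the members that differed most between the shams. The inhibitory Smad7 stood at 381 CPM in the standard sham, 191 in the ActD sham, 69.0 at 3 dpi and 96.8 at 14 dpi. Skil, a corepressor that the pathway itself induces, stood at 621 CPM in the standard sham, 289 in the ActD sham, 107 at 3 dpi and 148 at 14 dpi. Both were highest in the standard sham, above every other library. Ski, the related corepressor, stood at 212 CPM in the standard sham, 225 in the ActD sham, 130.1 at 3 dpi and 133 at 14 dpi, and its intervals overlapped between the shams and between 3 and 14 dpi, but not between sham and injury. All 3 were lower in both injury libraries than in both shams.

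**Figure D1:**
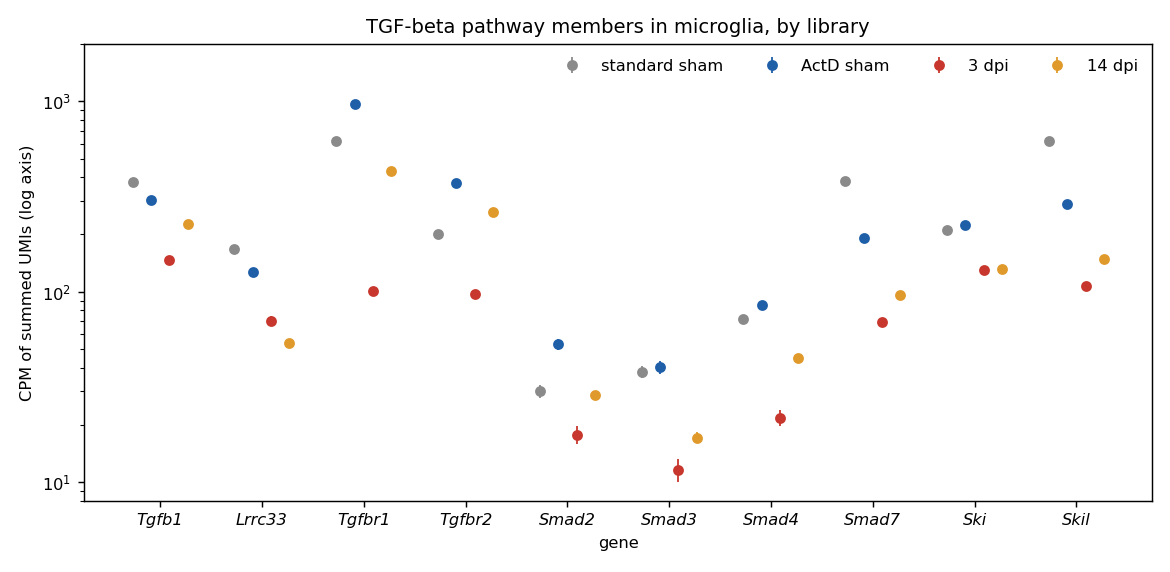
Level of the 10 members in microglia of the 4 libraries, as CPM of summed UMIs on a log axis, with exact Poisson 95% intervals. Tgfbr1 ranges from 102 CPM at 3 dpi to 965 CPM in the ActD sham, and 9 of the 10 members are lowest at 3 dpi.

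Counted together, 8 of 10 members were at least 2-fold lower in microglia at 3 dpi than in the ActD sham and none was 2-fold higher. Among the 12194 genes with at least 20 UMIs in that pair, 33.2% were at least 2-fold lower and 15.3% at least 2-fold higher. The median log2 ratio was -1.52 over the members and -0.53 over all genes, and all 10 members lay below the latter. The members short of 2-fold were Lrrc33 and Ski (-0.79). The size of the ratios depended on which cells were taken as microglia. Leaving out the cells with UMIs of at least 2 proliferation genes kept 93 microglia of 3 dpi, with a median of 7466 UMIs against 22039 in those left out, so that this choice also took the shallow cells. In them the ratio was -2.32 for Tgfbr1 and -0.31 for Smad7, against -1.47 for Smad7 in all, and 7 members were 2-fold lower. With cycling called after each cell was thinned to 3000 UMIs, 298 microglia of 3 dpi were kept, the ratios were -2.98 and -1.07, and 8 members were 2-fold lower.

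At 14 dpi, 3 of 10 members (Tgfbr1, Smad3 and Lrrc33) were at least 2-fold lower than in the ActD sham, beside 19.8% of all genes tested. None was 2-fold higher, beside 6.99% of genes. The members' median was -0.95 against -0.54 over all genes. Under TMM scaling, which moved every ratio of this pair by 0.57, no member was 2-fold lower and the ratios of Tgfb1 and Tgfbr2 turned to 0.15 and 0.05. Under a looser cell filter, 6 members were 2-fold lower.

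Between the injury libraries, 3 members (Tgfbr1, Tgfbr2 and Smad4) were at least 2-fold higher at 14 than at 3 dpi, beside 10.9% of genes, and none was 2-fold lower, beside 15.1%. The members' median was 0.60 against 0.01 over all genes. The log2 ratio of 14 to 3 dpi was 2.09 (2.02 to 2.16) for Tgfbr1, 1.43 (1.36 to 1.5) for Tgfbr2 and 1.03 (0.88 to 1.19) for Smad4. It was -0.39 (-0.49 to -0.29) for Lrrc33, the only member with a ratio below 0. Smad7 had a ratio of 0.49 that turned to -0.63 without cycling cells, and Ski, at 0.03, turned to -0.08. With cycling called at 3000 UMIs they were 0.09 and 0.0728. At resolution 1.2 Smad7 and Ski had -0.22 and -0.04, and without doublet removal -0.27 and -0.10. The 14 dpi library thus held microglia with more receptor transcripts than the 3 dpi library, but not more of the presenter.

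The 2 shams differ in whether ActD was present during dissociation. Skil was at least 2-fold higher in the standard sham, with a log2 ratio of 1.11 (1.06 to 1.15), and Smad7 lay just short of that fold at 0.99 (0.93 to 1.06). Beside this 1 member of 10, 7.27% of genes were 2-fold higher and 22.1% 2-fold lower. The members' median was -0.09 against -0.54. Tgfbr1 and Tgfbr2 had ratios of -0.64 (-0.67 to -0.60) and -0.90 (-0.96 to -0.84). For Smad3, Smad4 and Ski the ratios of -0.09, -0.24 and -0.08 turned positive under TMM scaling.

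Homeostatic genes of microglia, among them P2ry12, Tmem119 and Sall1 named above, were low in the same cells. The list held 20 genes, all measured, and 18 were at least 2-fold lower at 3 dpi than in the ActD sham, beside 33.2% of all genes. The list's median log2 ratio was -2.32, against -0.53 over all genes. At 14 dpi 18 were again 2-fold lower, beside 19.8% of all genes, with a median of -1.80 against -0.54. The summed level of the list was 10488 CPM in the standard sham, 18118 in the ActD sham, 3956 at 3 dpi and 5776 at 14 dpi. Against 3 dpi, the 14 dpi median was 0.75, against 0.01 over all genes, and 6 genes were 2-fold higher, beside 10.9%. The list's median was 0.22 with cycling cells left out, 0.51 with cycling called at 3000 UMIs and 0.10 when doublets were kept. Between the shams the median was -0.64, against -0.54 over all genes, and 5 of 20 were 2-fold lower in the standard sham, beside 22.1% of genes, a like share. The list's median was -0.050 under TMM scaling.

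P2ry12, the ADP receptor of resting microglia, stood at 1174 CPM in the standard sham, 2354 in the ActD sham, 148 at 3 dpi and 351 at 14 dpi. Tmem119, a surface protein of microglia, stood at 1064 CPM in the standard sham, 1351 in the ActD sham, 301 at 3 dpi and 292 at 14 dpi. The fractalkine receptor Cx3cr1 stood at 2041 CPM in the standard sham, 5329 in the ActD sham, 1335 at 3 dpi and 2093 at 14 dpi. Its log2 ratio at 3 dpi was -2.0, nearer 0 than that of P2ry12. Selplg, the ligand of P-selectin, stood at 1712 CPM in the standard sham, 2679 in the ActD sham, 302 at 3 dpi and 632 at 14 dpi. Sall1, the transcription factor of microglial identity, stood at 147 CPM in the standard sham, 310.4 in the ActD sham, 39.1 at 3 dpi and 89.2 at 14 dpi. The genes with the lowest ratios at 3 dpi were Upk1b, at -6.88 (-8.93 to -5.68), the fructose transporter Slc2a5, at -4.11, and P2ry12, at -3.99. The same 3 were the lowest at 14 dpi, at -5.18, -3.32 and -2.75. Those that moved least at 3 dpi were Golm1, at -1.18, Ecscr, at -0.96, and Bin1, at -0.93. Mef2c, a transcription factor of microglia, had -1.58 at 3 dpi and -0.88 at 14 dpi.

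Homeostatic genes spread widely in how 14 dpi stood to 3 dpi. Their median log2 ratio of 0.75 compares with 2.09 for Tgfbr1 and 1.43 for Tgfbr2, and no test of a difference between receptors and homeostatic genes was possible. Gpr155, Adgrg1 and Upk1b had the highest ratios of 14 to 3 dpi, at 1.48, 1.53 and 1.70. Ecscr, Ltc4s and Tmem119 had the lowest, at -0.72, -0.10 and -0.04. In the same cells a list of 13 genes of injury-responsive microglia (Apoe, Lpl, Spp1 and others) summed to 10029 CPM in the ActD sham, 59017 at 3 dpi and 113377 at 14 dpi.

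**Figure D2:**
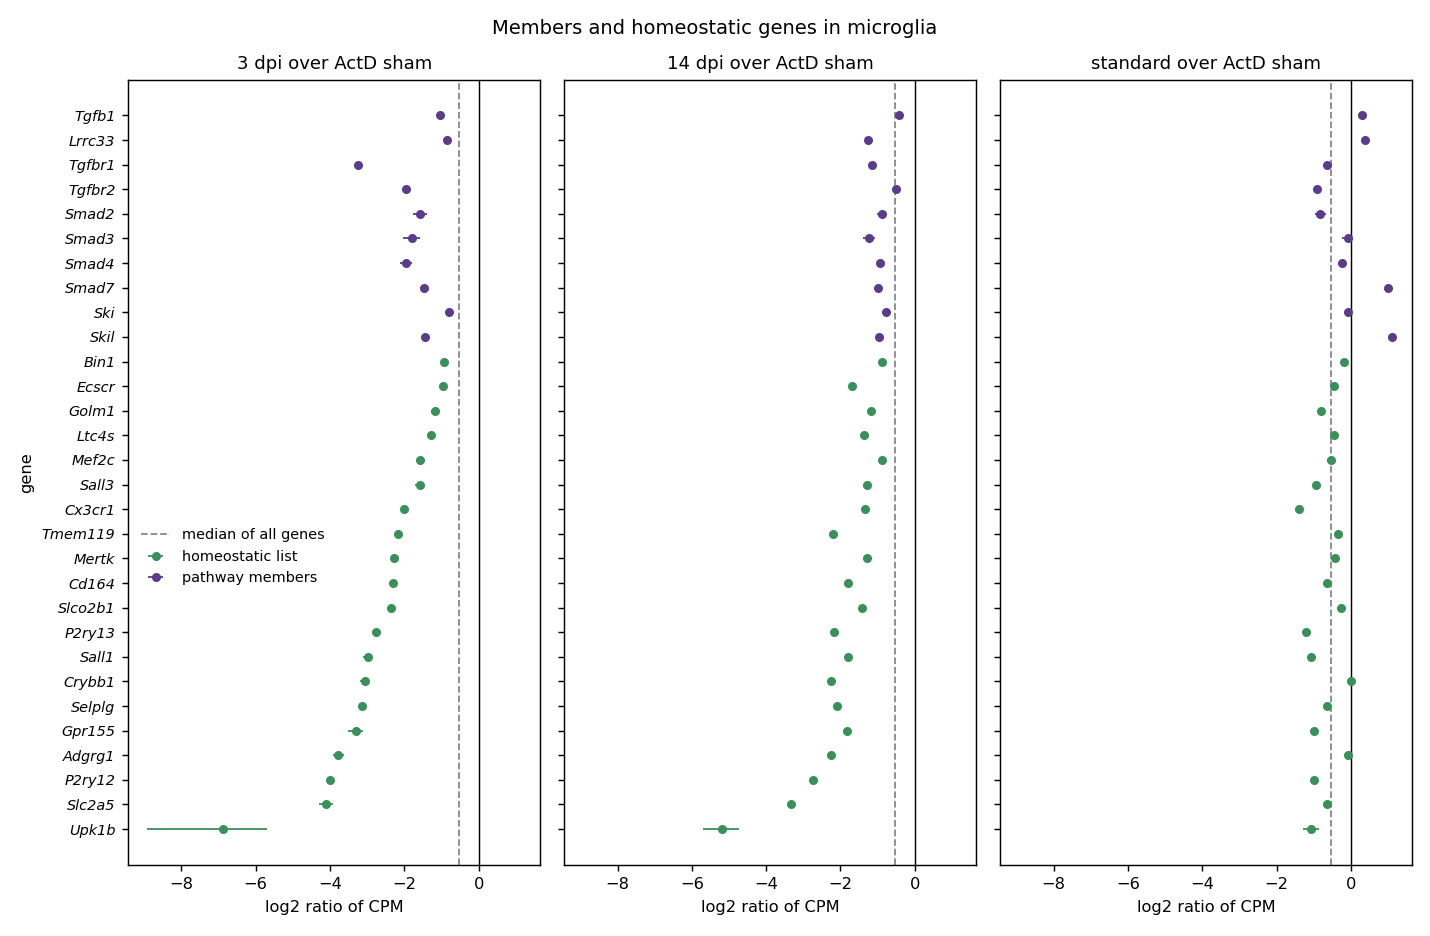
Log2 ratios of CPM in microglia for the 10 members and the 20 homeostatic genes in 3 comparisons, with exact conditional Poisson 95% intervals and the median over all genes as a dashed line. At 3 dpi over the ActD sham Tgfbr1 lies at -3.25 and P2ry12 at -3.99, beside an all-gene median of -0.53.

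Within each library, microglia with more homeostatic transcripts also held more Tgfbr1. Microglia were divided into 9, 6, 7 and 11 subclusters without using the members or the homeostatic list. Across these, Spearman's rho between Tgfbr1 and the summed homeostatic level was 0.93 in the standard sham, 0.94 in the ActD sham, 0.86 at 3 dpi and 0.90 at 14 dpi. For Smad3 it was 0.82, 0.94, 0.61 and 0.95. For the ligand it was -0.63, 0.83, 0.46 and 0.00, which gave no common direction. For Lrrc33 it was 0.15, 0.77, -0.43 and 0.35. Of the 40 pairs of member and library, 87.5% had a rho above 0. The share of all genes with a rho above 0 was not computed, so neither this count nor the thinned one below sets the members apart. In the ActD sham a subcluster was lowest in the homeostatic sum and in all 10 members, at a median of 4598 UMIs. Subclusters of a library share its preparation and differ in depth (medians of 3934 to 34518 UMIs), so the rho values are a description. They also differ in sex-linked genes. In the ActD sham the subcluster highest in both Tgfbr1 (1297 CPM) and the homeostatic sum (22025 CPM) was led by Ddx3y. Xist was among the leading genes of those with 1070 and 872 CPM of Tgfbr1. The study reports that the main microglial clusters of healthy cords depended on sex. The part of sex, here and in the cell-by-cell reading below, was not tested. With each cell thinned to 1000 UMIs, rho for Tgfbr1 was 0.83, 0.94, 0.82 and 0.92, high as before. For Smad3 it was then 0.35, -0.31, 0.11 and 0.69, lower in every library than without thinning. Its counts were sparse at that depth, with a Smad3 UMI in 90, 60, 14 and 86 microglia of the libraries. Tgfb1 had -0.92, 0.71, 0.61 and 0.21, and Lrrc33 0.22, 0.94, 0.11 and 0.64. A rho above 0 was then found in 82.5% of the 40 pairs.

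**Figure D3:**
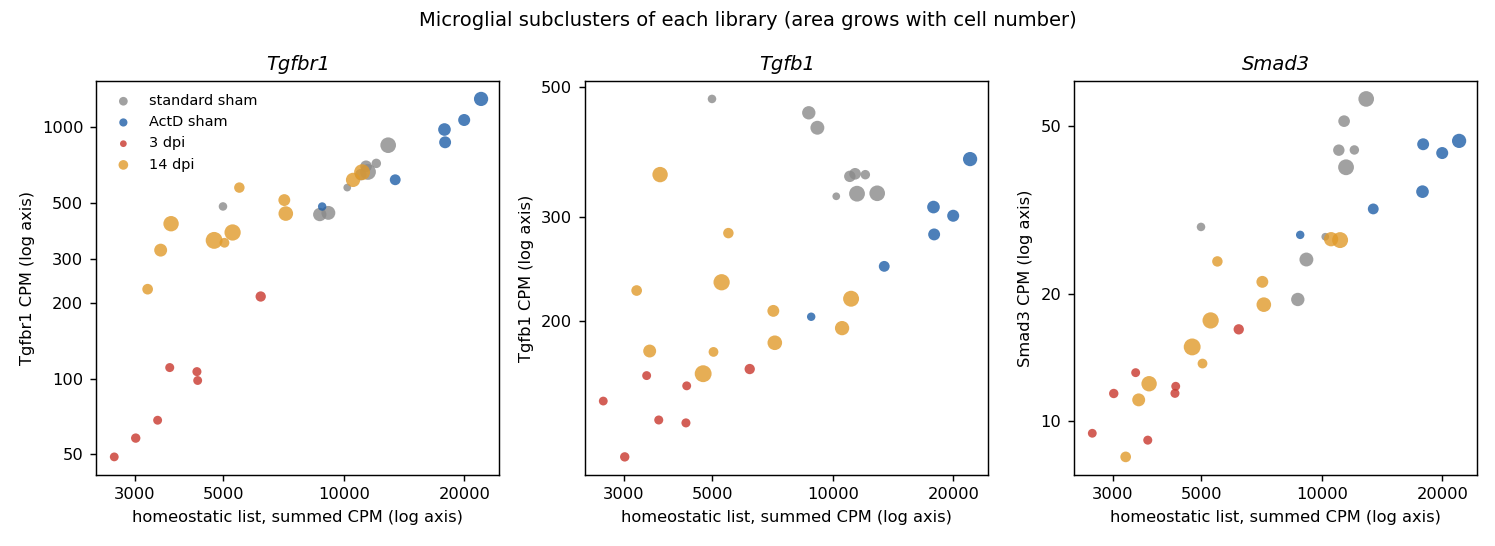
Levels of Tgfbr1, Tgfb1 and Smad3 against the summed level of the 20 homeostatic genes in each microglial subcluster, in CPM on log axes, with the libraries told apart by colour. Tgfbr1 goes with the homeostatic level in all 4 libraries (rho of 0.86 to 0.94), while Tgfb1 does so in the ActD sham (rho of 0.83) and not in the standard sham (rho of -0.63).

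The same was read cell by cell at a matched depth of 3000 UMIs, by setting the upper tercile of microglia by homeostatic UMIs against the lower. Tgfbr1 stood at 779 against 520.1 CPM in the standard sham, 1274 against 764 CPM in the ActD sham, 206 against 76.5 CPM at 3 dpi and 627 against 382 CPM at 14 dpi. The log2 differences were 0.58 (0.48 to 0.69), 0.74 (0.63 to 0.84), 1.42 (0.99 to 1.89) and 0.71 (0.62 to 0.81). Smad7 had 0.57 (0.44 to 0.70), 0.57 (0.34 to 0.81), 1.88 (1.26 to 2.58) and 0.86 (0.65 to 1.07). Tgfb1 had -0.17 (-0.30 to -0.04), 0.47 (0.27 to 0.66), 0.01 (-0.39 to 0.41) and -0.21 (-0.35 to -0.08), on both sides of 0. Smad3 had 0.78 (0.35 to 1.23), 0.88 (0.31 to 1.48), 1.40 (-0.07 to 3.31) and 0.94 (0.44 to 1.46). Ski had 0.27 (0.09 to 0.45), 0.42 (0.19 to 0.65), 0.72 (0.32 to 1.13) and 0.61 (0.44 to 0.78). Tgfbr2 had 0.10 (-0.09 to 0.30), 0.09 (-0.08 to 0.27), 0.82 (0.32 to 1.34) and 0.50 (0.38 to 0.63). Tgfbr1, Smad7 and Ski were thus higher in the upper tercile of every library, with intervals clear of 0. The share of all genes with this pattern was not computed. Tgfb1, Lrrc33 and Skil were lower in that tercile of the standard sham. At 3 dpi the terciles also differed in cycling cells, with 81.7% in the upper and 94.2% in the lower, as called on all UMIs of a cell. At 14 dpi these shares were 8.30% and 19.3%. Median depth before thinning was 15038 and 26095 UMIs at 3 dpi, and 7722 and 13821.5 UMIs at 14 dpi.

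Cycling cells were therefore set apart within a library, with the call made at 3000 UMIs, since deeper cells are called more readily. At 3 dpi this set 298 microglia against 473 cycling ones, with medians of 18086.5 and 23958 UMIs, and left out 50 shallower cells. Tgfbr1 was 122 against 91.8 CPM, a log2 difference of 0.42 (0.28 to 0.55), non-cycling over cycling. Smad7 was 90.9 against 58.7 CPM, a log2 difference of 0.63 (0.47 to 0.79). Tgfb1 did not differ beyond counting error, at 147 against 147 CPM, a log2 difference of -0.01 (-0.12 to 0.11). P2ry12 was 193 against 126 CPM, a log2 difference of 0.61 (0.50 to 0.72). Called on all UMIs, the log2 differences were 0.99 for Tgfbr1 and 1.23 for Smad7, between cells of more unequal depth. The non-cycling microglia of 3 dpi still held less Tgfbr1 than the microglia of any other library. At 14 dpi, with 3906 cells against 70, Tgfbr1 was 434 against 366 CPM, a log2 difference of 0.24 (0.10 to 0.39).

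Across cell classes of at least 50 cells, Tgfbr1 was highest in microglia in 3 of the 4 libraries. In the ActD sham its level was 965 CPM (949 to 980.1) in microglia, 147 CPM (126 to 170.2) in border macrophages, 62.4 CPM (40.8 to 91.5) in B cells and 43.9 CPM (34.4 to 55.1) in neutrophils. The last 2 had overlapping intervals. The standard sham had the same first and second class, at 619.8 and 108 CPM, then neutrophils at 89.0, which overlapped border macrophages, B cells at 40.3 and monocytes at 26.3 CPM. At 14 dpi microglia were followed by border macrophages at 298 CPM, injury macrophages at 202, dendritic cells at 90.5 and monocytes at 58.0 CPM. T, NK and B cells, neutrophils and myeloid progenitors lay between 26.5 and 36.6 CPM. At 3 dpi the order broke: neutrophils had 125 CPM (114 to 136), above microglia at 102 CPM (97.0 to 106), and all other classes with at least 50 cells lay between 18.8 and 49.96 CPM.

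Depth differs between classes, so shares of cells were compared at 1000 UMIs. In the ActD sham 60.2% (57.7 to 62.7%) of microglia had a Tgfbr1 UMI, with exact binomial limits in parentheses, against 3.92% (1.08 to 9.74%) of neutrophils. At 3 dpi the shares were 11.7% (9.59 to 14.1%) and 11.9% (10.4 to 13.6%). T cells, a class not known for microglial transcripts, had 1.2% (0.443 to 2.60%) at 3 dpi. Without thinning the microglial shares were 98.9% in the ActD sham and 76.2% at 3 dpi, at median depths of 9500 and 20185 UMIs. UMIs of microglial genes were also counted in other classes, and their source, such as free RNA or mixed droplets, was not tested. P2ry12, a microglial gene, stood in 3 dpi neutrophils at 27.8% of its microglial level, Tmem119 at 11.2% and Tgfbr1 at 123%. In the border macrophages of 14 dpi the same shares were 59.6%, 53.0% and 68.9%, so microglial transcripts were present in that class and its Tgfbr1 level has to be read with them.

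The ligand was spread more widely than its receptor. In the ActD sham Tgfb1 stood at 304 CPM (295 to 313) in microglia and 267 CPM (219 to 321) in B cells, whose intervals overlapped, then 219 CPM (193 to 247) in border macrophages and 39.7 CPM (30.8 to 50.4) in neutrophils. No cells of the ActD sham were named monocytes. In the standard sham monocytes held 289 CPM (265 to 315), below microglia at 378 CPM (369 to 386). In the injury libraries monocytes were the highest class, with 373 CPM (354 to 392) at 3 dpi and 345 CPM (330.4 to 361) at 14 dpi. At 3 dpi border macrophages, dendritic cells, injury macrophages, microglia and B cells followed at 159, 156, 147, 147 and 135 CPM, each overlapping the next. T cells and neutrophils were lowest at 85.3 and 81.1 CPM. At 14 dpi myeloid progenitors, microglia and B cells had 242, 227 and 224 CPM, and T cells and neutrophils were again lowest at 107 and 59.8 CPM.

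Lrrc33 was a gene of macrophages and monocytes as much as of microglia. In the ActD sham it stood at 300.3 CPM (270.0 to 333) in border macrophages against 128 CPM (122 to 134) in microglia. At 3 dpi border macrophages were again first, at 139.8 CPM (128 to 152), followed by dendritic cells at 112, neutrophils at 103 and injury macrophages at 97.8 CPM, with microglia at 70.6. At 14 dpi monocytes were first at 189 CPM (178 to 201), and microglia at 53.8 CPM lay below dendritic cells, myeloid progenitors, border macrophages and injury macrophages. T cells had the least among classes of at least 50 cells at 14 dpi, at 25.2 CPM, with NK cells at 31.4.

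Among the remaining members, and among classes of at least 50 cells, Smad7 was highest in T cells in both injury libraries. T cells held 153 CPM (136 to 171) at 3 dpi and 145 CPM (133 to 157) at 14 dpi, against 69.0 and 96.8 CPM in microglia. The next class overlapped them, B cells at 3 dpi and NK cells at 14 dpi. The 32 NK cells of 3 dpi held 159 CPM (91.0 to 258), which overlapped T cells too, and the 25 T cells of the standard sham held 449 CPM (357 to 557). Skil was highest in microglia in both shams and at 14 dpi, but at 3 dpi neutrophils held 308 CPM (291 to 326) against 107 CPM (102 to 112) in microglia. Smad3 was highest in microglia in both shams and in NK cells at 14 dpi, at 39.5 CPM (28.7 to 53.0), which overlapped the interval of T cells. For Smad2 and Smad4 the highest class overlapped the second in each library. Smad4 still ranged at 3 dpi from 61.3 CPM (53.9 to 69.3) in neutrophils to 21.9 CPM (19.8 to 24.1) in microglia, and at 14 dpi from 83.1 CPM (74.2 to 92.6) in dendritic cells to 41.8 CPM (38.2 to 45.7) in neutrophils. Over the 40 combinations of member and library, microglia were the highest class of at least 50 cells in 19. In some of these, such as Tgfb1 in the ActD sham, the interval overlapped that of the next class. Classes compared numbered 5 in the standard sham, 4 in the ActD sham, 8 at 3 dpi and 10 at 14 dpi. The share over all genes was not computed, so this count does not set the members apart.

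**Figure D4:**
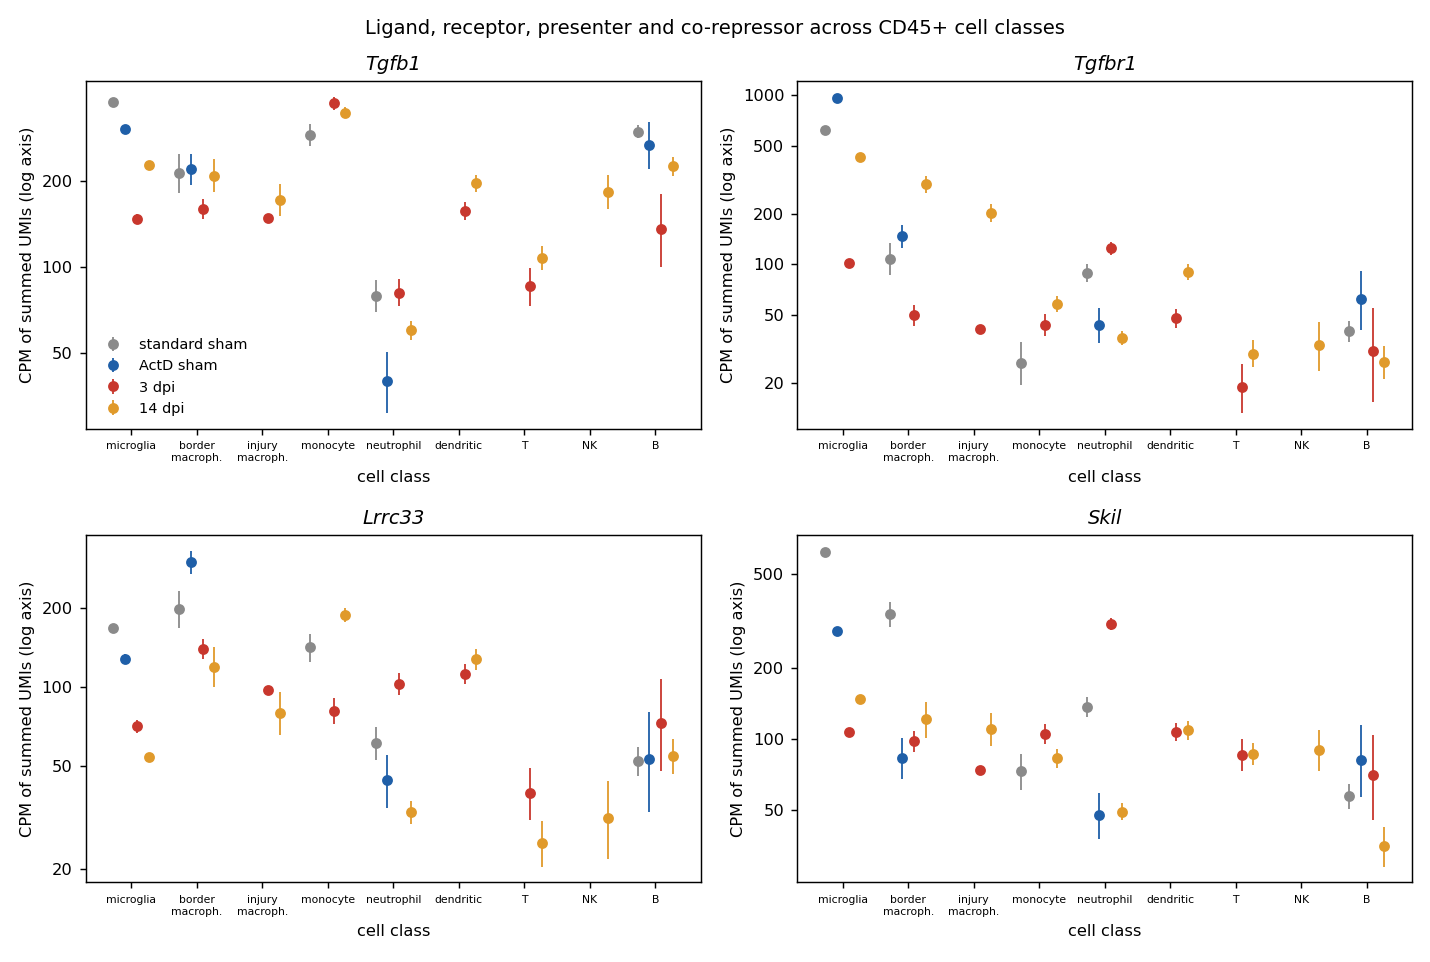
Levels of Tgfb1, Tgfbr1, Lrrc33 and Skil in 9 cell classes of the 4 libraries, in CPM on log axes, with exact Poisson 95% intervals. Tgfbr1 is highest in microglia except at 3 dpi, where neutrophils stand at 125 CPM, and Tgfb1 is highest in monocytes at 3 and 14 dpi.

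In border macrophages, 4 of 10 members were at least 2-fold lower at 3 dpi than in the ActD sham, beside 19.4% of genes, and Smad7 was 2-fold higher, beside 11.2%. Tgfbr1 had a log2 ratio of -1.56 (-1.86 to -1.25) and Tgfbr2 of -1.79 (-2.02 to -1.57) there. Both receptors were therefore lower at 3 dpi in microglia and in border macrophages. The summed level of the 6 microglial markers was lower too in border macrophages, at 669 CPM at 3 dpi against 3167 CPM in the ActD sham. The part of microglial transcripts in these receptor ratios was not tested. Smad7 rested on few counts in the ActD sham, at 14.3 CPM (8.31 to 22.8). The 14 dpi over 3 dpi ratio of Tgfbr1 was 2.57 (2.31 to 2.84) in border macrophages and 2.29 (2.11 to 2.47) in injury macrophages, a class with no cells in the shams. The 6 microglial markers moved with it: their summed level went from 669 to 4596 CPM in border macrophages and from 794 to 3109 CPM in injury macrophages, with none at 0, and their part in these ratios was not tested. In both classes 3 members were 2-fold higher at 14 dpi, beside 14.7% and 16.8% of genes, and none was 2-fold lower, beside 8.83% and 11%. Against the ActD sham, 2 members were 2-fold higher in border macrophages of 14 dpi and 1 was lower, beside 4.13% and 4.9% of genes. The comparisons with the ActD sham share that library, and those of 14 with 3 dpi share the latter.

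In neutrophils the order of the libraries was the other way round. There 8 of 10 members were at least 2-fold higher at 3 dpi than in the ActD sham, but so were 51.9% of genes, with an all-gene median of 1.05. None was 2-fold lower, beside 7.17%. The neutrophils of the ActD sham were 102 cells with a median of 13540 UMIs, against 1638 cells with 2345 UMIs at 3 dpi. Different clusters held them: 72.5% of the ActD sham lay in a cluster led by Mmp8, Ltf and Ngp, against 2.26% at 3 dpi, when 97.7% lay in one led by Cxcr2, Il1b and other genes. Immediate early genes summed to 3006 CPM in the ActD sham and 23130.1 CPM at 3 dpi. The part of these differences in the ratios was not tested. Ski, Skil and Smad7 had the highest ratios, at 2.97 (2.49 to 3.53), 2.69 (2.37 to 3.05) and 2.51 (1.90 to 3.25). From 3 to 14 dpi, 7 members were 2-fold lower in neutrophils and none higher, beside 43.4% of genes lower and 8.51% higher. At 14 dpi 39.8% of neutrophils lay in the cluster that held nearly all of 3 dpi. Within that cluster 2 members were 2-fold lower, Ski at -1.82 (-2.18 to -1.50) and Skil at -1.003 (-1.20 to -0.82), beside 47.2% of genes and an all-gene median of -0.92. Between 14 dpi and the ActD sham none of the 10 was past 2-fold in neutrophils, beside 19.4% of genes higher and 5.01% lower. In the Mmp8 cluster alone Tgfbr1 was 2-fold lower at 14 dpi, at -1.01 (-1.45 to -0.56), beside 8.09% of genes.

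In monocytes 3 members were at least 2-fold higher at 14 than at 3 dpi, beside 21.8% of genes, and 2 were 2-fold lower, beside 7.53%. Lrrc33 had the highest ratio there, at 1.22 (1.04 to 1.41). The make-up of monocytes differed between these libraries. In the integrated clustering, the clusters led at 14 dpi by Vcan and by Ace held 360 and 321 cells there, against 745 and 52 at 3 dpi. These are cells before the match with each library clustered alone, and the part of this difference in the ratios was not tested. In T cells none of the 10 was past 2-fold in either direction between these libraries, beside 7.07% of genes higher and 6.37% lower. In dendritic cells Ski was the only such member, 2-fold lower at -1.29 (-1.65 to -0.95), beside 5.63% of genes lower and 9.63% higher. In B cells 2 of 9 members with enough UMIs were 2-fold lower at 3 dpi than in the ActD sham, beside 15.7% of genes, and none was higher, beside 7.01%. That sham held 63 B cells. The B cells of 14 dpi were of another make-up, with 31.5% and 10.1% in clusters led there by Vpreb3, Igll1, Vpreb1 and other genes of B cell precursors, which held no cell named B cell at 3 dpi or in the ActD sham. Proliferation genes summed to 7357 CPM there, against 264 at 3 dpi and 125 in the ActD sham. At 14 dpi 3 of 10 members were 2-fold lower than in the ActD sham and none higher, beside 10.9% of genes lower and 14.7% higher. Against 3 dpi, Smad2 was 2-fold higher in the B cells of 14 dpi, beside 22% of genes, and Ski, Skil and Tgfbr2 were 2-fold lower, beside 12.9%. Within the cluster shared by all libraries, no member was past 2-fold between 14 dpi and the ActD sham, beside 3.72% of genes lower and 4.26% higher. There 14 over 3 dpi gave 1.14 (-0.03 to 2.77) for Smad2, -1.43 (-2.41 to -0.45) for Ski, -0.21 (-0.89 to 0.55) for Skil and -0.38 (-0.95 to 0.23) for Tgfbr2.

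The use of ActD was also compared in the other classes present in both shams. In border macrophages 2 members were at least 2-fold higher in the standard than in the ActD sham and none lower, beside 5.51% of genes higher and 16.3% lower. Their log2 ratios were, for Smad7, 1.27 (0.36 to 2.25) and, for Skil, 2.03 (1.69 to 2.38). In neutrophils Tgfbr1, at 1.01 (0.65 to 1.41), Smad7, at 2.27 (1.65 to 3.02) and Skil, at 1.52 (1.18 to 1.89), were 2-fold higher and no member lower, beside 16% and 8.44% of genes. In the Mmp8 cluster alone these 3 and Tgfbr2 were 2-fold higher, beside 15.0% of genes. Skil and Smad7 thus stood higher in the standard sham in these 2 classes as well as in microglia. In B cells Ski, at -1.26 (-2.12 to -0.18), was 2-fold lower and no member higher, beside 13.1% of genes lower and 14.5% higher. The precursor clusters held B cells of the standard sham and none of the ActD sham. Within the shared cluster the ratio of Ski was -0.57 (-1.49 to 0.54), and the largest ratio in either direction was that of Smad7, at 1.47 (0.96 to 2.08).

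The wider pathway in microglia was read from 4 lists of genes outside the 10 members. Of 12 receptors and receptor partners, 11 had at least 20 UMIs, and 8 of these were 2-fold lower at 3 dpi than in the ActD sham, with a median of -1.70. None was 2-fold higher. Over all genes 33.2% were lower and 15.3% higher, with a median of -0.53. The activin receptor Acvr2b stood at 19.7 CPM in the standard sham, 20.6 in the ActD sham, 2.57 at 3 dpi and 5.64 at 14 dpi, and endoglin (Eng), a coreceptor, at 64.1 CPM in the standard sham, 85.9 in the ActD sham, 14.5 at 3 dpi and 25.8 at 14 dpi. The least changed were Fkbp1a, which binds the type I receptor, at 0.00, Strap at -0.17 and Acvrl1 at -0.58. At 14 dpi 4 receptors were 2-fold lower (median -0.62), beside 19.8% and a median of -0.54 over all genes. Against 3 dpi 4 were 2-fold higher (median 0.76), beside 10.9% and 0.01. The type I and II receptors of the members were therefore not alone in this direction.

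Of 20 other signalling genes 18 were measured, and 9 were 2-fold lower at 3 dpi and none higher (median -0.98). Over all genes 33.2% were lower and 15.3% higher, with a median of -0.53. Tgif2, a corepressor, had -3.32, the acetyltransferase Ep300 -1.90 and the ubiquitin ligase Smurf1 -1.74. At 14 dpi 3 were 2-fold lower (median -0.71), near the 19.8% of all genes. Tgif1 stood at 169.7 CPM in the standard sham, 33.1 in the ActD sham, 34.5 at 3 dpi and 40.9 at 14 dpi, and with Tgif2 made the 2 genes of the list that were 2-fold higher in the standard than in the ActD sham. Over all genes 7.27% were 2-fold higher in that comparison.

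Of 17 genes for latent ligand and its release, 8 had enough UMIs in the comparison of 3 dpi with the ActD sham. The integrin chains Itgb3, Itgav and Itgb5 were 2-fold lower, at -1.83, -1.27 and -1.26, beside 33.2% of all genes. Furin, the protease that cleaves the ligand precursor, Ltbp3 and Thbs1 were 2-fold higher, at 1.03, 2.31 and 4.76, beside 15.3% of all genes. Thbs1, which can free latent TGF-beta, stood in microglia at 151 CPM at 3 dpi, below T cells at 179 and B cells at 222, while monocytes held 3886 CPM. How much of its microglial value was background RNA was not tested. Itgb5 was the most abundant of the list, at 1043 CPM in the standard sham, 1184 in the ActD sham, 494 at 3 dpi and 993 at 14 dpi. The ligands Tgfb2 and Tgfb3 lay at or below 1.03 CPM in microglia of every library, and Lrrc32, the presenter of other cell types, at or below 0.0636 CPM.

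Genes known to respond to TGF-beta did not move together. Of 14, 11 were measured at 3 dpi over the ActD sham, of which 7 were 2-fold higher and 2 were 2-fold lower (median 1.24), beside 15.3% of all genes higher and 33.2% lower. Pmepa1, an inhibitor induced by the pathway, stood at 428 CPM in the standard sham, 871 in the ActD sham, 381 at 3 dpi and 525 at 14 dpi, and Spsb1 at 26.6 CPM in the standard sham, 63.2 in the ActD sham, 38.8 at 3 dpi and 28.5 at 14 dpi. Both were highest in the ActD sham and lower in the 2 injury libraries. Itgae had the lowest ratio, -1.68, on 2.16 CPM in the ActD sham. Id2, a blocker of basic helix-loop-helix factors, stood at 775 CPM in the standard sham, 26.1 in the ActD sham, 241 at 3 dpi and 66.2 at 14 dpi. Klf10, an early response gene, stood at 105 CPM in the standard sham, 6.93 in the ActD sham, 16.4 at 3 dpi and 2.75 at 14 dpi. Both were highest in the standard sham, where the immediate early genes were highest too.

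Tgfbi, a matrix protein, stood at 22.9 CPM in the standard sham, 24.7 in the ActD sham, 406 at 3 dpi and 36.1 at 14 dpi. At 3 dpi it was 155 CPM in T cells and 157 in B cells, against 735 in injury macrophages and 1909 in monocytes. How much of its microglial level was background RNA was not tested. Bambi, a decoy receptor, stood at 11.1 CPM in the standard sham, 2.10 in the ActD sham, 4.48 at 3 dpi and 21.5 at 14 dpi. At 14 dpi over the ActD sham 4 targets were 2-fold higher and 3 lower of 12 measured (median 0.56), beside 6.99% and 19.8% of all genes. At 14 over 3 dpi 2 were 2-fold higher and 6 lower (median -1.14), beside 10.9% and 15.1%. In the standard over the ActD sham 6 were higher and 2 lower (median 0.92), beside 7.27% and 22.1%.

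**Figure D5:**
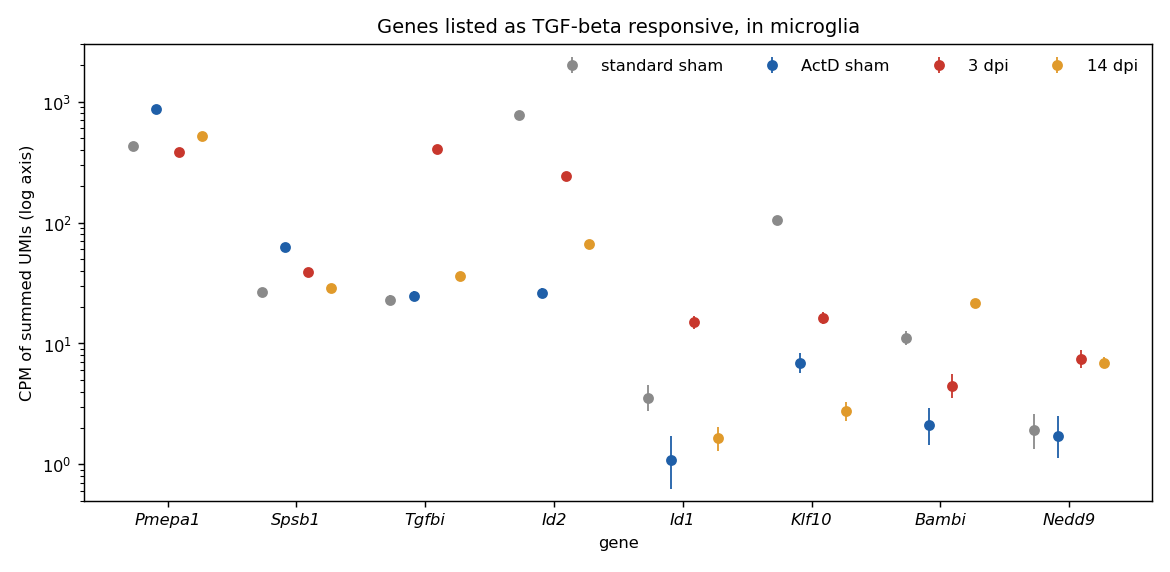
Levels in microglia of 8 genes known to respond to TGF-beta, in CPM by library, with exact Poisson 95% intervals. Pmepa1 and Spsb1 are highest in the ActD sham, at 871 and 63.2 CPM, Id2 and Klf10 in the standard sham, at 775 and 105 CPM, and Tgfbi at 3 dpi, at 406 CPM.

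The genes whose level over classes and libraries was most like a member's were sought among 9340 genes over 27 combinations. For Tgfbr1 they included Arhgap5 (Pearson's r 0.94) and Plxdc2 (0.93). For Tgfb1 they were Mcrip1 (0.83), Socs6 (0.83) and Rpl10 (0.83). For Lrrc33 they were Cnpy3 (0.87), Pisd (0.86) and Gm35154 (0.85). The combinations share libraries, so these values only describe likeness.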

How the data were processed

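CD45+ cells of mouse spinal cord were profiled in 4 libraries, 1 per group. The authors processed the reads with Cell Ranger against mm10, per the labels, and deposited raw UMI counts per gene and barcode. Matrix headers name version 3.0.1 (standard sham, 3 dpi) or 3.1.0 (ActD sham, 14 dpi). From these counts, cells below 600 genes or above 10% mitochondrial UMIs were dropped, as were cells with Itgam beside a lymphoid marker (such as Cd3e or Klrb1c), after the study. Doublets were removed by Scrublet score (scanpy 1.11.5) at 0.8% per 1000 barcodes, in place of DoubletFinder: 291, 42, 774 and 931 cells. Median depth per kept cell was 7426, 9672, 8894 and 8733 UMIs.

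Libraries were integrated in Seurat 5.3.0 (2000 features, 50 dimensions, resolution 0.6, R 4.3.3), and each was also clustered alone. A cell was named by its integrated cluster where both clusterings gave the same marker class, with border and injury macrophages counted as 1 class for that match. Its thresholds were chosen with the clusters in view. For each class of a library, UMIs were added up and divided by the class total. Ratios had 0.5 UMIs added, and a gene entered a comparison with at least 20 UMIs in the pair. "2-fold" means at least 2-fold in CPM. Intervals of ratios (scipy 1.17.1) were tested on simulated data. Those counts were drawn with Poisson error, so this cannot show whether the intervals hold for UMIs gathered in few cells. With 1 library a group there was no test, and 14 alternatives of scaling, clustering and filters were tried, TMM with edgeR 4.0.16.

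All 10 members were named. Of each list the 3 genes with the highest and the 3 with the lowest ratio could be named, with the 6 most abundant homeostatic genes. Other pathway genes whose levels are given were chosen after their values were seen. The members and the lists were chosen with earlier results of these data known. Some genes are not reported here. Clec7a was not in the matrices used here, and the list of injury-responsive microglia therefore had 13 of 14 genes. Promoter windows came from RefSeq (GRCm38.p6). Those of Smad2, Smad4 and Smad7 were not taken from it, and 6 of the other members had a window.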

Additional observations from a re-analysis of the deposited data

Results flagged for a closer look

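Some members moved at least 2-fold one way in microglia and at least 2-fold the other way in another class under the same comparison, with both counting intervals clear of 0. The difference between the classes was not tested in any of these, since each group was 1 library. At 3 dpi over the ActD sham, Smad7 had a log2 ratio of 1.48 in border macrophages and -1.47 in microglia.

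In neutrophils the ratios of 3 dpi to the ActD sham were 1.02 for Tgfb1, 1.5 for Tgfbr1, 1.44 for Tgfbr2, 1.01 for Smad3, 2.51 for Smad7 and 2.69 for Skil. In microglia the same 6 had -1.05, -3.25, -1.94, -1.79, -1.47 and -1.43. Less the all-gene median of neutrophils, 1.05, the values were -0.03 for Tgfb1, 0.45 for Tgfbr1, 0.39 for Tgfbr2, -0.04 for Smad3, 1.46 for Smad7 and 1.64 for Skil, so that Tgfb1 and Smad3 lay at that median. Neutrophils of these 2 libraries lay mostly in different clusters.

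At 14 dpi over the ActD sham, Tgfbr1 had 1.02 in border macrophages and -1.16 in microglia. In that border class P2ry12 stood at 59.6% of its microglial level at 14 dpi and at 9.91% in the ActD sham. At 14 over 3 dpi, Tgfbr1 had -1.77 and Tgfbr2 -1.35 in neutrophils, against 2.09 and 1.43 in microglia, and Tgfbr2 had -1.14 in B cells. Within the cluster that held most neutrophils of 3 dpi these ratios were -0.55 (-0.82 to -0.29) and -0.11 (-0.47 to 0.23), and within the shared B cell cluster Tgfbr2 had -0.38 (-0.95 to 0.23).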

How the results depend on the processing

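No paired analysis was possible because each group was 1 library. The count of members changed at least 2-fold stayed within 1.5 times its value at 3 dpi over the ActD sham (6 to 8) and at 14 over 3 dpi (2 or 3) under all 14 alternatives. Raising the minimum to 200 UMIs or dropping it could not move this count, since every member had more in each pair. Adding homeostatic markers to the naming left the number of microglia unchanged in each library. At 14 dpi over the ActD sham the count of members went from 3 to 0 under TMM and to 6 under the looser filter (at least 200 genes, at most 20% mitochondrial UMIs). In the standard over the ActD sham it went from 1 to 2 under TMM, with cycling cells left out, with the mean over cells, without doublet removal and with integrated names alone, the last chosen after seeing the data, as was the call of cycling cells at 3000 UMIs. TMM moved every ratio by 0.47 (3 dpi over the ActD sham), 0.57 (14 dpi), 0.10 (14 over 3 dpi) and 0.59 (standard over the ActD sham).

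The homeostatic median of 3 dpi over the ActD sham, -2.32, became -1.85 under TMM, -1.84 with cycling cells left out, -2.23 with cycling called at 3000 UMIs, -1.75 without doublet removal, -1.83 at resolution 1.2, -2.44 under the stricter filter and -2.47 under the looser. That of 14 dpi, -1.80, became -1.24 under TMM, -1.60 with the mean over cells, -1.71 with integrated names alone and -1.93 under the looser filter. That of 14 over 3 dpi, 0.75, became 0.22 with cycling cells left out, 0.51 with cycling called at 3000 UMIs, 0.10 without doublet removal and at resolution 1.2, 0.85 under TMM, 0.93 with integrated names alone and 0.90 under the stricter filter. That of the shams, -0.64, became -0.050 under TMM and -0.53 with integrated names alone. The microglia of 3 dpi numbered 263 without doublet removal, 310 at resolution 1.2, 329 under the stricter filter, 298 with cycling called at 3000 UMIs and 93 with cycling cells left out, against 821. The cause of the other shifts was not tested. No value at or past 2-fold changed sign.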
